A study of Mus musculus with 12 samples.

Results

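The genes described are those of the mitochondrial ribosomal proteins, taken as every gene on the array whose symbol begins with Mrpl (large subunit) or Mrps (small subunit) and a number. They number 76 of the 16593 genes with a symbol on the array, 47 in the large and 29 in the small subunit, and are read by 110 probes. Where a gene has several probes, the brightest on average stands for it. Of the 76 genes, 70 passed the filter on dim signals (43 large, 27 small), out of 10781 genes that passed in all.

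RNA was measured on single-colour Illumina bead arrays, with 1 array for each of 7 tongue tumours and 5 normal tongues of B6 mice, whose age is given as 8 months. The tumours came from mice treated for 8 weeks with 200 µg/mL 4NQO, a quinoline carcinogen that forms DNA adducts, together with 500 µg/mL arecoline, an alkaloid of areca nut. The normal tongues came from control mice treated for 8 weeks with DMSO, and both groups then rested for 20 weeks. The labels do not say that the pieces came from separate animals, so each p-value measures only the spread between pieces, which may be technical, and the carcinogens and the tumour state cannot be told apart because every tumour mouse had both agents.

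Mitochondria keep their own ribosome, which makes a few proteins of the respiratory chain and ATP synthase encoded by mitochondrial DNA. Its RNAs come from that DNA, but all of its proteins are encoded in the nucleus, made in the cytosol and imported. It descends from a bacterial ribosome, so many of its proteins have a bacterial counterpart, while others exist in mitochondria only. Muscle fibres, which make up much of the tongue, are rich in mitochondria.

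Between 14734 and 15375 probes lay above background on each array. Across genes, arrays correlated at r = 0.923 to 0.984 among tumours, 0.973 to 0.997 among normals and 0.798 to 0.909 between the groups. The tissue differed in make-up as well. Of 23 measured skeletal muscle markers, 22 were called lower in tumours, and the mean log2 signal of this list was 8.33 to 12.12 in tumours and 13.05 to 13.56 in normals. None of them was absent from all tumours, although Casq1, the calcium store protein of fast fibres, was above background in 1 of 7. Squamous epithelium markers were called higher for 12 and lower for 3 of 16. Proliferation markers were higher for 10 of 10 measured of 16 listed, and neutrophil markers for 6 of 7 measured of 10 listed. T and NK cell markers were higher for 5 of 10 measured of 15 listed, and endothelial markers lower for 7 of 9 measured of 10 listed. Over all genes, 32.5% were called higher and 23.6% lower. The filter asks for 5 arrays, so markers above background in 1 group alone can pass it. Fewer cells of a type and less RNA per cell cannot be told apart in such pieces, and the part of these shifts in the values below was not tested. Tumour 2 and normal 1 carried salivary gland signal, with list means of 11.60 and 12.71, against 6.54 to 6.73 in the other tumours and 6.94 to 7.27 in the other normals.

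Most mitochondrial ribosomal protein genes had less RNA in the tumours than in normal tongue, in both subunits. By limma, with Benjamini-Hochberg adjustment over all probes that passed and a threshold of 0.05, 28 of 43 large subunit genes and 16 of 27 small subunit genes were lower, 44 of 70 in all, where 23.6% of all genes were lower. Only 3 were higher, all of the large subunit (Mrpl17, Mrpl36 and Mrpl52), where 32.5% of all genes were higher, and none of these 3 calls held when arrays were centred on reference genes. The remaining 12 large and 11 small subunit genes were not called. In 36 genes every tumour lay below every normal, 24 large and 12 small, against 16.9% of all genes, and in the same 3 every tumour lay above every normal, against 21.0%.

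The falls were modest in size. The median log2 change, tumour minus normal, was -0.39 in the large and -0.34 in the small subunit, while the median over all genes was 0.07. Values ran from -1.45 to 0.53 in the large and from -0.90 to 0.17 in the small subunit, and 56 of the 70 lay below 0. Just 3 of the 70 were called lower and at least halved, Mrpl42, Mrpl38 and Mrpl18, where 9.23% of all genes met both conditions. The 6 genes that did not pass the filter (Mrpl19, Mrpl21, Mrpl32, Mrpl45, Mrps14 and Mrps36) were not well above background, on any array for 5 of them and on 2 arrays for Mrpl45, so their change is unknown.

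**Figure D1:**
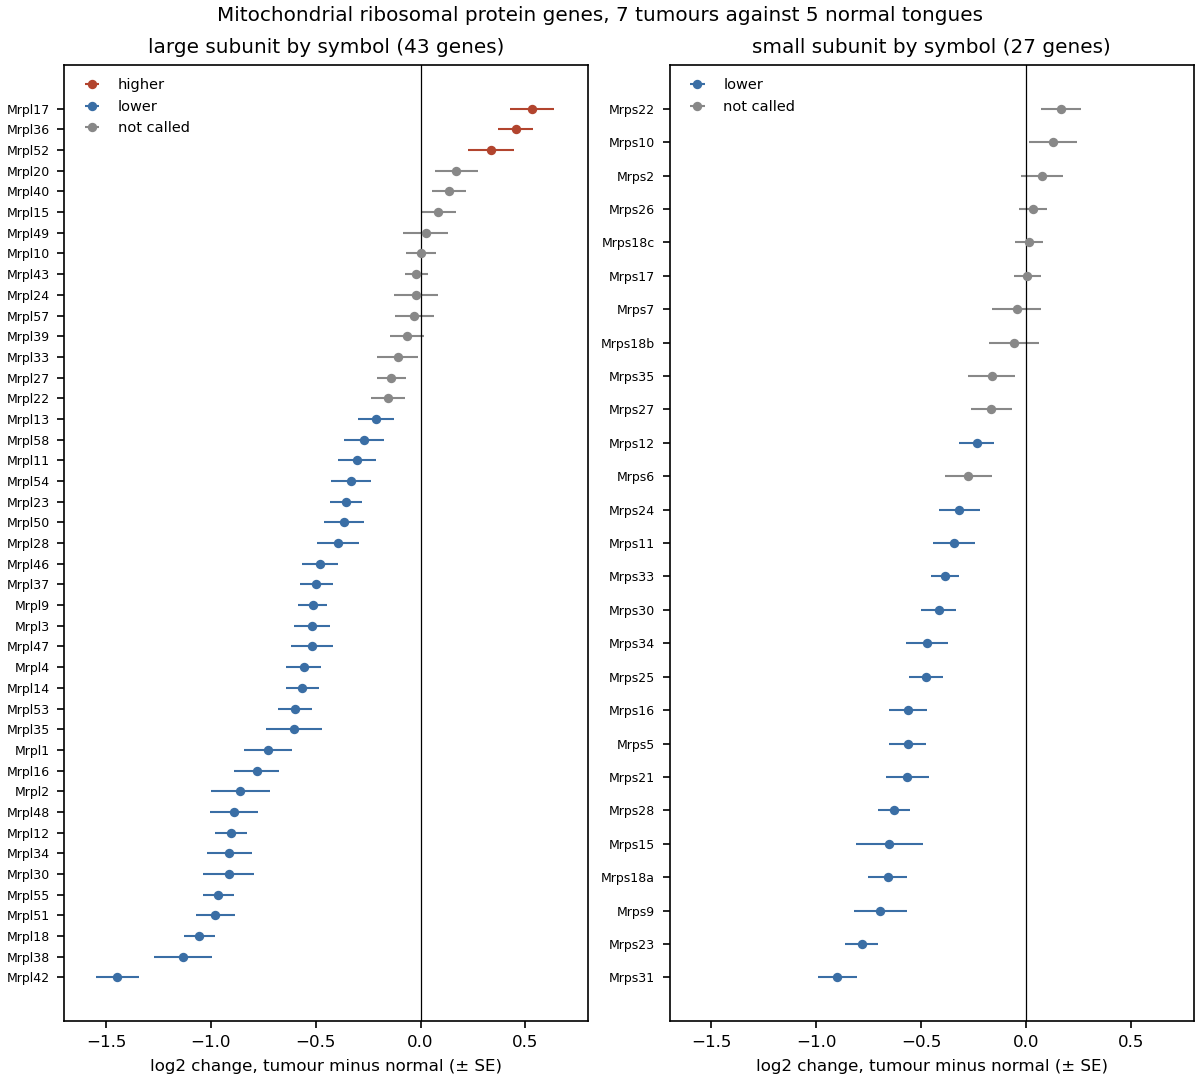
Log2 change, tumour minus normal, of the 43 large and 27 small subunit genes that passed the filter, each ± SE, coloured by the call. Lower calls fill most of both panels, 28 and 16, and the 3 higher calls, all lost when arrays are centred on reference genes, stand in the large subunit.

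For promoters, RefSeq windows of the GRCm38.p6 assembly were used, each holding 250 bases before and 50 bases after an annotated transcription start. They were found for 67 of the 76 genes, in 73 windows. Exact matches on either strand were sought to 5 motifs of factors linked to nuclear genes for mitochondrial proteins or to growth: GCATGCGC for NRF1, CCGGAAGT for ETS factors such as GABP, AAGATGGCG for YY1, CACGTG (the E-box bound by Myc) and TCAAGGTCA for the oestrogen-related receptors. No match of one motif overlapped one of another in these windows. NRF1 letters stood in 11% of the 73 windows and in 2.71% of all 32851 windows of the table, ETS letters in 16.4% and 3.89%, YY1 letters in 11% and 1.4%, E-box letters in 9.59% and 7.15%, and the receptor motif in 0% and 0.423%. At least 1 of NRF1, ETS and YY1 was present in 35.6% of the mitoribosomal windows and 7.57% of all. Some genes have several overlapping windows, and counted by gene the E-box share was 7.46% of 67 genes against 8.09% of all 27025, whereas NRF1, ETS and YY1 letters stood in 11.9%, 17.9% and 11.9% of the 67 and 3.05%, 4.31% and 1.64% of all. Median GC content was 58.67% in the mitoribosomal windows and 52.67% in all windows. YY1 letters lay 12 to 37 bases after the start in Mrpl35, Mrpl37, Mrpl42, Mrps18a, Mrps24 and Mrps27, and before it in Mrpl36 and Mrps11. A match describes letters only and is not a site.

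In the large subunit, the gene with the lowest value relative to normal tongue was Mrpl42, which encodes a protein found in mitochondrial ribosomes only. Its log2 signal had a lowest, median and highest value of 10.89, 11.42 and 11.55 in tumours, against 12.84, 12.72, 12.88, 12.72 and 12.76 in normals. All tumours lay far below all normals. Mrpl42 averaged 11.34 ± 0.22 (SD, n = 7) in tumours and 12.78 ± 0.07 (SD, n = 5) in normals, a log2 change of -1.45 (SE 0.10), 2.72-fold lower in tumours, with a limma adjusted p of 2.09e-07.

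Mrpl38 codes for a protein of the central protuberance that bacteria lack. Its lowest, median and highest values were 9.52, 10.16 and 10.39 in tumours, against 11.46, 11.12, 11.21, 11.37 and 11.23 in normals, a log2 change of -1.13 (SE 0.14, limma adjusted p 1.86e-05). The groups stood apart, and tumour 6 was lower than the other tumours.

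Mrpl18 is the counterpart of the bacterial protein that holds 5S rRNA. It read 9.11, 9.28 and 9.44 at the lowest, median and highest in tumours, against 10.44, 10.14, 10.33, 10.40 and 10.42 in normals, a log2 change of -1.05 (SE 0.07, limma adjusted p 1.77e-07). Every tumour was below every normal, but its second probe, above background in 4 of 7 tumours and 5 of 5 normals, was called lower with a smaller difference of -0.24 (limma adjusted p 0.00404), measured against tumour signals partly at background.

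The promoter windows of the 2 strongest falls that have one, and of 2 of the genes that were higher, are printed for comparison, 5′ to 3′ on the gene's strand, with motif letters in capitals. Mrpl42 (chr10:95501900-95502199, minus strand) holds YY1 letters 28 bases after the start, Mrpl18 (chr17:12916042-12916341, minus strand) ETS letters 240 bases before it, Mrpl17 (chr7:105811038-105811337, minus strand) NRF1 letters 11 bases before it, and Mrpl36 (chr13:73330759-73331058, plus strand) an E-box 43 bases and YY1 letters 31 bases before it.
Mrpl42: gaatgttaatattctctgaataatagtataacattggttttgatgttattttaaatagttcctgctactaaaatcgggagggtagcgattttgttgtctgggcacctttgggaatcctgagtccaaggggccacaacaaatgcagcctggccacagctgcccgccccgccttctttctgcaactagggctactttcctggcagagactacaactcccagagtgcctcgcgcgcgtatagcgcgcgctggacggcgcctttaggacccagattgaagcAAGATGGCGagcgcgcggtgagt
Mrpl18: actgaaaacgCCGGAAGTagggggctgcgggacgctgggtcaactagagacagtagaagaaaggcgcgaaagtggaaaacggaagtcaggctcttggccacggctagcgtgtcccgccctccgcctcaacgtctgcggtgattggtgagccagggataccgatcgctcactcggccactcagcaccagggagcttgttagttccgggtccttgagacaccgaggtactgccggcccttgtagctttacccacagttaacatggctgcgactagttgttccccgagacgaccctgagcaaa
Mrpl17: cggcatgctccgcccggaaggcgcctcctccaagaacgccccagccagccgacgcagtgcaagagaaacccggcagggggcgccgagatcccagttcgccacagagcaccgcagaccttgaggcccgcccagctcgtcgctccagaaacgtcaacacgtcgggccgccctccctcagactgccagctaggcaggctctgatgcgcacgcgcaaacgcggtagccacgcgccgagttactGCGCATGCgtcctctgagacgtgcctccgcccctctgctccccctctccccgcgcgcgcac
Mrpl36: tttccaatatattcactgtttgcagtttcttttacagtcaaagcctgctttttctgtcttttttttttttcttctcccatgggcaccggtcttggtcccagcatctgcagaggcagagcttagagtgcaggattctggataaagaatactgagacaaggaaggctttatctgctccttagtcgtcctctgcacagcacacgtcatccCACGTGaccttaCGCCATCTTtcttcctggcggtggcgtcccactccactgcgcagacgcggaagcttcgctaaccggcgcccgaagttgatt

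Mrpl51 and Mrpl55 encode proteins found in mitochondria only, and Mrpl30 a bacterial-type protein. Mrpl51 gave 6.81, 7.00 and 7.14 in tumours (lowest, median, highest), against 8.28, 7.84, 8.05, 7.78 and 7.90 in normals, a log2 change of -0.98 (SE 0.09, limma adjusted p 2.05e-06). Its other probes gave -0.27 and -0.35, both called lower. Mrpl55 had 9.24, 9.28 and 9.52 in tumours, against 10.49, 10.18, 10.28, 10.35 and 10.32 in normals, a log2 change of -0.97 (SE 0.07, limma adjusted p 3.47e-07). Mrpl30 had 10.28, 10.81 and 11.18 in tumours, against 11.76, 11.70, 11.79, 11.60 and 11.70 in normals, a log2 change of -0.92 (SE 0.12, limma adjusted p 3.38e-05). In all 3 genes the groups did not overlap.

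The stalk of the large subunit, where translation factors dock, is built from the counterparts of bacterial proteins L7/L12, L10 and L11. Mrpl12, its L7/L12, had values of 11.04, 11.16 and 11.41 in tumours (lowest, median, highest), against 12.23, 12.03, 12.07, 12.09 and 12.15 in normals, and fell by 0.90 on the log2 scale (SE 0.08, limma adjusted p 6.9e-07) with no overlap. Mrpl11 read 9.04, 9.38 and 9.55 in tumours, against 9.65, 9.65, 9.69, 9.69 and 9.62 in normals, a log2 change of -0.30 (SE 0.09, limma adjusted p 0.0108). Mrpl10, which carries the L7/L12 copies, was not called: it read 11.10, 11.28 and 11.43 in tumours, against 11.22, 11.30, 11.25, 11.25 and 11.28 in normals, and its log2 change of 0.00 had a 95% interval of -0.15 to 0.16. The tumours lay on both sides of the normals there. Mrpl1, the counterpart of the protein on the opposite side of the bacterial subunit, had a log2 change of -0.73 (SE 0.11, limma adjusted p 0.000131). Its second probe, above background in 4 of 7 tumours, was called lower with a smaller change of -0.21 (limma adjusted p 0.0230) and overlapping groups. Mrpl10 and Mrpl1 were picked after their values were seen.

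Proteins at the catalytic core and the exit tunnel were mixed. Mrpl2, whose bacterial counterpart lies beside the peptidyl transferase centre, had 9.40, 9.80 and 10.15 in tumours (lowest, median, highest), against 11.04, 10.31, 10.69, 10.86 and 10.68 in normals, a log2 change of -0.86 (SE 0.14, limma adjusted p 0.000215). The highest tumour stayed just under the lowest normal. Mrpl3, mutated in a human cardiomyopathy, had 10.11, 10.33 and 10.54 in tumours, against 10.93, 10.69, 10.79, 10.93 and 10.88 in normals, a log2 change of -0.52 (SE 0.09, limma adjusted p 0.000229). Both groups stood apart there too.

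Of the counterparts of bacterial tunnel-exit proteins, Mrpl23 had 11.75, 11.84 and 12.07 in tumours, against 12.16, 12.21, 12.18, 12.29 and 12.39 in normals, a log2 change of -0.36 (SE 0.08, limma adjusted p 0.00137). Mrpl24 was not called, with 10.14, 10.41 and 10.71 in tumours, against 10.52, 10.37, 10.51, 10.41 and 10.61 in normals, a log2 change of -0.02 (95% interval -0.25 to 0.20). Its tumours spread around the normals, and the sign changed with several settings. Mrpl45, which tethers the human ribosome to the inner membrane, was above background in 0 of 7 tumours and 2 of 5 normals and gives no change.

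A pair of large subunit calls was marginal. Mrpl58 encodes a peptidyl-tRNA hydrolase built into the ribosome. It had 8.24, 8.64 and 8.78 in tumours (lowest, median, highest), against 8.98, 8.75, 8.85, 9.07 and 8.77 in normals, a log2 change of -0.27 (SE 0.10, limma adjusted p 0.0279). Mrpl13 had 11.42, 11.73 and 11.89 in tumours, against 12.02, 11.79, 11.91, 11.81 and 12.001 in normals, a log2 change of -0.21 (SE 0.08, limma adjusted p 0.0466). In both the groups overlapped. Of 27 alternatives, the call held in 23 for Mrpl58 and in 11 for Mrpl13, whose second probe above background gave -0.19 and was not called.

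The other large subunit genes called lower had log2 changes of -0.91 for Mrpl34, -0.89 for Mrpl48 and -0.78 for Mrpl16 at the lower end. Mrpl35, Mrpl53, Mrpl14, Mrpl4, Mrpl47, Mrpl9 and Mrpl37 followed between -0.60 and -0.50, then Mrpl28, Mrpl50 and Mrpl54 between -0.39 and -0.33. Besides Mrpl10 and Mrpl24, the genes not called were Mrpl22, Mrpl27, Mrpl33, Mrpl39, Mrpl57 and Mrpl43, between -0.15 and -0.02, and Mrpl49, Mrpl15, Mrpl40 and Mrpl20, between 0.02 and 0.17. Less bright probes differed in call for some: those of Mrpl33 (-0.28) and Mrpl43 (-0.30) were called lower, and that of Mrpl47 (-0.21) was not called.

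The 3 higher genes code for the bacterial-type proteins L17 and L36 and for a protein found in mitochondria only. Mrpl17 had 11.64, 11.97 and 12.28 in tumours (lowest, median, highest), against 11.49, 11.29, 11.34, 11.41 and 11.38 in normals, a log2 change of 0.53 (SE 0.10, limma adjusted p 0.000842), which shrank to 0.003 with arrays centred on reference genes. Mrpl36 had 11.58, 11.77 and 11.95 in tumours, against 11.47, 11.12, 11.29, 11.36 and 11.39 in normals, a log2 change of 0.45 (SE 0.08, limma adjusted p 0.000527), but -0.07 with that centring. Mrpl52, the mitochondria-only one, had 10.61, 10.76 and 11.28 in tumours, against 10.58, 10.38, 10.49, 10.50 and 10.40 in normals, a log2 change of 0.34 (SE 0.11, limma adjusted p 0.0191), with 0.17 and no call under cyclic loess and -0.19 with the reference genes. The tumours stood above the normals by a narrow gap in Mrpl52 and by a wider one in the other two.

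**Figure D2:**
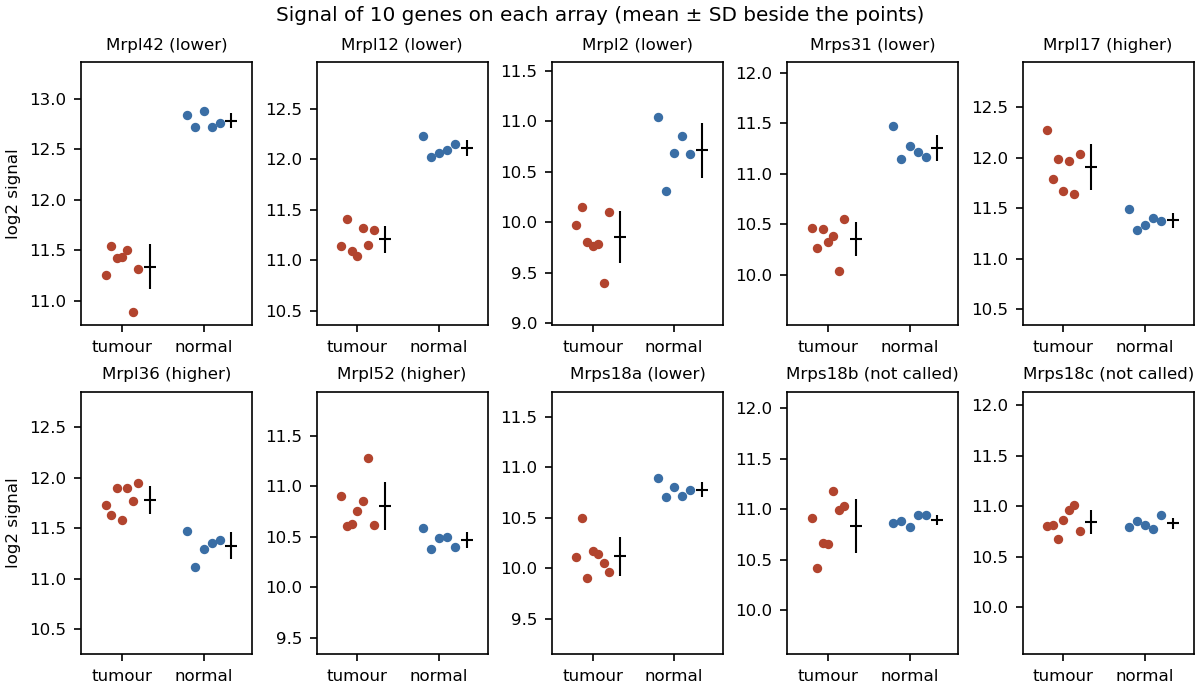
Log2 signal on each of 7 tumour and 5 normal arrays for 10 genes, every panel spanning the same number of log2 units, with mean ± SD beside the points. Mrpl42, Mrpl12, Mrpl2, Mrps31 and Mrps18a lie lower in tumours, Mrps18b and Mrps18c overlap, and Mrpl17, Mrpl36 and Mrpl52 lie higher, a direction that centring on reference genes removed in Mrpl17 (0.003) and turned in the other two (-0.07 and -0.19).

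In the small subunit, the largest falls with no overlap were in Mrps31, Mrps23, Mrps9, Mrps18a, Mrps28 and Mrps21. Mrps31, a mitochondria-only protein of the subunit's head, had 10.04, 10.38 and 10.56 in tumours (lowest, median, highest), against 11.47, 11.15, 11.27, 11.22 and 11.16 in normals. It averaged 10.36 ± 0.17 (SD, n = 7) in tumours and 11.25 ± 0.13 (SD, n = 5) in normals, a log2 change of -0.90 (SE 0.09), 1.87-fold lower in tumours, with a limma adjusted p of 3.76e-06. Its 3 probes gave -1.01 to -0.89.

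Mrps23, also mitochondria-only, had 9.79, 9.94 and 10.20 in tumours, against 10.86, 10.65, 10.84, 10.75 and 10.76 in normals, a log2 change of -0.78 (SE 0.08, limma adjusted p 3.34e-06). Mrps9, the counterpart of the bacterial protein whose tail reaches the P site, had 9.60, 10.11 and 10.34 in tumours, against 10.87, 10.43, 10.61, 10.82 and 10.82 in normals, a log2 change of -0.69 (SE 0.13, limma adjusted p 0.000451). The gap between the groups was wide for Mrps23 and narrow for Mrps9. Mrps28 had a log2 change of -0.63 (SE 0.08, limma adjusted p 1.5e-05), with 10.08, 10.24 and 10.45 in tumours and 10.98, 10.73, 10.87, 10.82 and 10.90 in normals. Mrps21 had a log2 change of -0.57 (SE 0.10, limma adjusted p 0.000418), with 10.85, 10.88 and 11.44 in tumours and 11.58, 11.47, 11.47, 11.68 and 11.48 in normals. Its highest tumour came within reach of the lowest normals, while the other tumours stayed well below.

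Also called lower were Mrps15 (-0.65), Mrps25 (-0.48), Mrps34 (-0.47), Mrps33 (-0.38) and Mrps24 (-0.32), with overlapping groups for Mrps15 and Mrps24. Genes not called, beyond those described by role, were Mrps6 (-0.27), Mrps35 (-0.16), Mrps17 (0.01), Mrps26 (0.03), Mrps2 (0.08) and Mrps10 (0.13).

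Both proteins of decoding fixed by role were called lower, Mrps5 under all 27 alternatives but Mrps12 under only 17. Mrps12 is the counterpart of the bacterial S12 of the decoding centre. It had 10.90, 11.04 and 11.35 in tumours, against 11.49, 11.29, 11.30, 11.20 and 11.21 in normals, a log2 change of -0.24 (SE 0.08, limma adjusted p 0.0309), with overlapping groups. Mrps5, whose bacterial counterpart bears on decoding accuracy, had 8.89, 9.12 and 9.22 in tumours, against 9.47, 9.49, 9.83, 9.70 and 9.83 in normals, a log2 change of -0.56 (SE 0.09, limma adjusted p 0.000117) with no overlap.

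Mutations of MRPS7, MRPS16 and MRPS22 cause mitochondrial disease in humans. Mrps16 had 9.74, 10.11 and 10.21 in tumours, against 10.72, 10.57, 10.46, 10.72 and 10.67 in normals, and fell by 0.56 on the log2 scale (SE 0.09, limma adjusted p 0.000148) with the groups apart. Mrps22 was not called, with 9.70, 10.07 and 10.38 in tumours, against 9.92, 9.83, 9.90, 9.998 and 9.90 in normals, a log2 change of 0.17 (95% interval -0.04 to 0.38). Tumour 2 alone lay below the normals, and without it the value was 0.23 and called higher (limma adjusted p 0.0167), whereas with the reference genes it was -0.36 and called lower.

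Mrps7 was not called on its brighter probe either, with 10.86, 11.20 and 11.59 in tumours, against 11.34, 11.20, 11.21, 11.06 and 11.29 in normals, a log2 change of -0.04 (95% interval -0.30 to 0.21). Its second probe gave -0.41 (SE 0.10, limma adjusted p 0.00431), so the 2 probes of this gene differ in call. Mrps27, a pentatricopeptide repeat protein, had 7.93, 8.30 and 8.54 in tumours, against 8.42, 8.50, 8.42, 8.58 and 8.55 in normals, a log2 change of -0.16 (95% interval -0.37 to 0.04), and was not called.

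The names and the structures differ for a few of these proteins. Mammalian structures place the products of Mrps30 and Mrps18a in the large subunit, and Mrps36 is now known as a part of a dehydrogenase complex. Mrps30 had 10.74, 10.95 and 11.01 in tumours (lowest, median, highest), against 11.54, 11.09, 11.33, 11.27 and 11.46 in normals, a log2 change of -0.42 (SE 0.08, limma adjusted p 0.000758), and the groups did not overlap. Counted by structure, 30 of 45 large and 14 of 25 small subunit genes were lower, where 23.6% of all genes were lower and 32.5% higher. Split by ancestry, 27 of 43 genes with a bacterial counterpart were lower and 2 higher, with a median of -0.36, and 17 of 27 mitochondria-only genes were lower and 1 higher, with a median of -0.38.

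Mammals have 3 genes for relatives of bacterial S18, and their RNAs were not alike here. Mrps18a had 9.90, 10.12 and 10.50 in tumours, against 10.89, 10.71, 10.81, 10.72 and 10.78 in normals, a log2 change of -0.66 (SE 0.09, limma adjusted p 6.14e-05), with all tumours below all normals. Mrps18b had 10.42, 10.92 and 11.18 in tumours, against 10.87, 10.89, 10.83, 10.95 and 10.95 in normals, a log2 change of -0.06 (95% interval -0.31 to 0.20), and its second probe gave 0.20 with no call. Mrps18c had 10.67, 10.81 and 11.01 in tumours, against 10.79, 10.85, 10.81, 10.77 and 10.91 in normals, a log2 change of 0.01 (95% interval -0.13 to 0.16). Tumours lay on both sides of the normals for Mrps18b and Mrps18c, and the difference between the 3 genes was not tested. Centred on reference genes, Mrps18c was -0.51 and called lower.

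The promoter windows of the 3 relatives are shown because they share an ancestor and differ in call. Mrps18a (chr17:46110754-46111053, plus strand) holds YY1 letters 12 bases after the start. Mrps18b (chr17:35916391-35916690, minus strand) holds NRF1 letters 223 bases before and 29 bases after it. Mrps18c (chr5:100798509-100798808, plus strand) holds an E-box 163 bases and ETS letters 157 bases before it, which touch and form 1 run of capitals.
Mrps18a: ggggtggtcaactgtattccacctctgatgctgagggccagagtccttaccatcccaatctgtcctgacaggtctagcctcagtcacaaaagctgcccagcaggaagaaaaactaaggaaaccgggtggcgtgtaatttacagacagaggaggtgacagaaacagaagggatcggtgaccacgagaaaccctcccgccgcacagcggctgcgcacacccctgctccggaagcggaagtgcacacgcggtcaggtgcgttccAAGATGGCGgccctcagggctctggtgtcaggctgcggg
Mrps18b: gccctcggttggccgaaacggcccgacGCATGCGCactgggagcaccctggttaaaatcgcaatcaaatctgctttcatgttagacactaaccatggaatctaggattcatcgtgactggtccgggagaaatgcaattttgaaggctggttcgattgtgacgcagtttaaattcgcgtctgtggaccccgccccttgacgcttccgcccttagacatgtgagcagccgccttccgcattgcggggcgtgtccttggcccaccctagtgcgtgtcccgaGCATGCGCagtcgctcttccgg
Mrps18c: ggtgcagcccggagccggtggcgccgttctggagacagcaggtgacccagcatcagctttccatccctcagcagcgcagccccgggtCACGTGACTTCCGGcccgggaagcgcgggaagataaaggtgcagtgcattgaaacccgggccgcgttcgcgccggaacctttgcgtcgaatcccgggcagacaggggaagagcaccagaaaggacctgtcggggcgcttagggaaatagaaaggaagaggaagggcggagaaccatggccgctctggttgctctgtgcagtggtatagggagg

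By call, NRF1 letters stood in 1 and ETS letters in 4 of the 44 windows of genes called lower, and in 5 and 7 of the 21 windows of genes not called. YY1 letters stood in 6 of the 44 and in 1 of the 21. The 3 windows of the genes called higher held 1 match each of NRF1 and ETS and 1 each of YY1 and the E-box. These counts are small and were not tested. Median GC content was 58% in the windows of genes called lower and 63.33% in those of genes not called.

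Several of these genes have a promoter window that overlaps that of a neighbour on the other strand. The windows of 24 genes overlapped such a window, counting an overlap of any length. An overlap of windows does not show that a promoter is shared, and the share of all genes with one was not counted. Mrpl46 (chr7:78783040-78783339, minus strand) and Mrps11 (chr7:78782881-78783180, plus strand) share 141 bases, and are shown because both partners are mitoribosomal. The Mrps11 window has YY1 letters 108 bases before its start, outside the shared stretch, and the Mrpl46 window has no match.
Mrpl46: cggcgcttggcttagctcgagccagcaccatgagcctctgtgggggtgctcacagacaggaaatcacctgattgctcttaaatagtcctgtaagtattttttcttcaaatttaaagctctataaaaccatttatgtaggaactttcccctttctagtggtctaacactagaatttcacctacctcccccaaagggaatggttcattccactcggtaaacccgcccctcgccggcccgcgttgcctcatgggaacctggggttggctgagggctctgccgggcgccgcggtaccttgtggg
Mrps11: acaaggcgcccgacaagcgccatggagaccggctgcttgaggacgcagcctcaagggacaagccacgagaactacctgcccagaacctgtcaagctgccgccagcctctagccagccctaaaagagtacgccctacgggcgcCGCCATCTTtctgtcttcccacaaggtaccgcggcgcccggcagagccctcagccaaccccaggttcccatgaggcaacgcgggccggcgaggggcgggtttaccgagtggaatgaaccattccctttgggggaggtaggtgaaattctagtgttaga

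Both genes of this pair were called lower. Mrpl46 had 10.34, 10.61 and 10.80 in tumours (lowest, median, highest), against 11.21, 10.99, 11.09, 11.08 and 11.13 in normals, a log2 change of -0.48 (SE 0.08, limma adjusted p 0.000357). Mrps11 had 9.13, 9.35 and 9.69 in tumours, against 9.66, 9.65, 9.60, 9.97 and 9.80 in normals, a log2 change of -0.34 (SE 0.10, limma adjusted p 0.0111). The groups were apart for Mrpl46 and overlapped slightly for Mrps11.

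Partners outside the family had mixed calls. Both genes were measured in 14 such pairs, and in 8 the mitoribosomal gene was called lower. The partner was then lower in 3, higher in 1 and not called in 4, where 23.6% of all genes were lower and 32.5% higher. The counts of these pairs are small and were not tested. Mrpl18 shares 263 bases with Tcp1, a subunit of the cytosolic chaperonin, which had a log2 change of 0.33 (SE 0.10, limma adjusted p 0.0106) beside the -1.05 of Mrpl18. Mrpl47 shares 193 bases with Ndufb5, a subunit of respiratory complex I, and their log2 changes were -0.52 for Mrpl47 and -1.67 (SE 0.15, limma adjusted p 1.09e-06) for Ndufb5. These pairs were chosen after their values were seen.

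Taken 1 tumour at a time, 44 to 59 of the 70 genes lay below all 5 normals. The counts were 54, 59, 53, 50, 46, 44 and 46 in tumours 1 to 7, where 32.3%, 35.9%, 32.8%, 31.1%, 30.2%, 33.4% and 32.3% of all genes lay below. Above all 5 normals lay 5, 3, 9, 6, 14, 15 and 12 of the 70, where 42.2%, 35.5%, 41.9%, 42.9%, 46.6%, 44.4% and 45.7% of all genes did. The mean log2 signal over the large subunit was 10.08 to 10.25 in tumours and 10.46 to 10.62 in normals, and over the small subunit 10.10 to 10.26 in tumours and 10.43 to 10.56 in normals. Neither list mean overlapped between the groups.

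The large subunit mean spanned 0.17 log2 units across the 7 tumours and the small subunit mean 0.16. Skeletal muscle markers spanned 3.79 and proliferation markers 1.09, while other lists spanned as little as the mitoribosomal ones, with 0.12 for ribosome assembly, 0.16 for the reference genes, 0.19 for translation factors and 0.08 for cytosolic ribosomal proteins. In tumours 1 to 7 the muscle means were 9.86, 12.12, 9.18, 10.66, 8.33, 8.65 and 8.43, and the mitoribosomal means over both subunits 10.11, 10.09, 10.15, 10.16, 10.25, 10.16 and 10.19. Tumour 2, with the most muscle signal and with salivary gland signal, had the lowest of these mitoribosomal means. Tumour 4, with the second most muscle signal, had the third highest. The spans are not scaled to the difference between the groups, which was -3.63 for the muscle mean and -0.38 for the mitoribosomal mean. Respiratory chain and ATP synthase subunits averaged 11.44 to 11.91 in tumours and 12.69 to 12.87 in normals, and were highest among tumours in tumours 2 and 4 (11.91 and 11.77), where muscle signal was also highest (12.12 and 10.66). Within this family Cox6a2, Cox7a1 and Cox8b varied most among tumours, with SDs of 2.03, 2.10 and 2.06. Their log2 changes were -4.67, -5.58 and -5.21, and their part in the family mean was not tested. The relation of muscle signal to the mitoribosomal and respiratory chain means was not tested either.

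**Figure D3:**
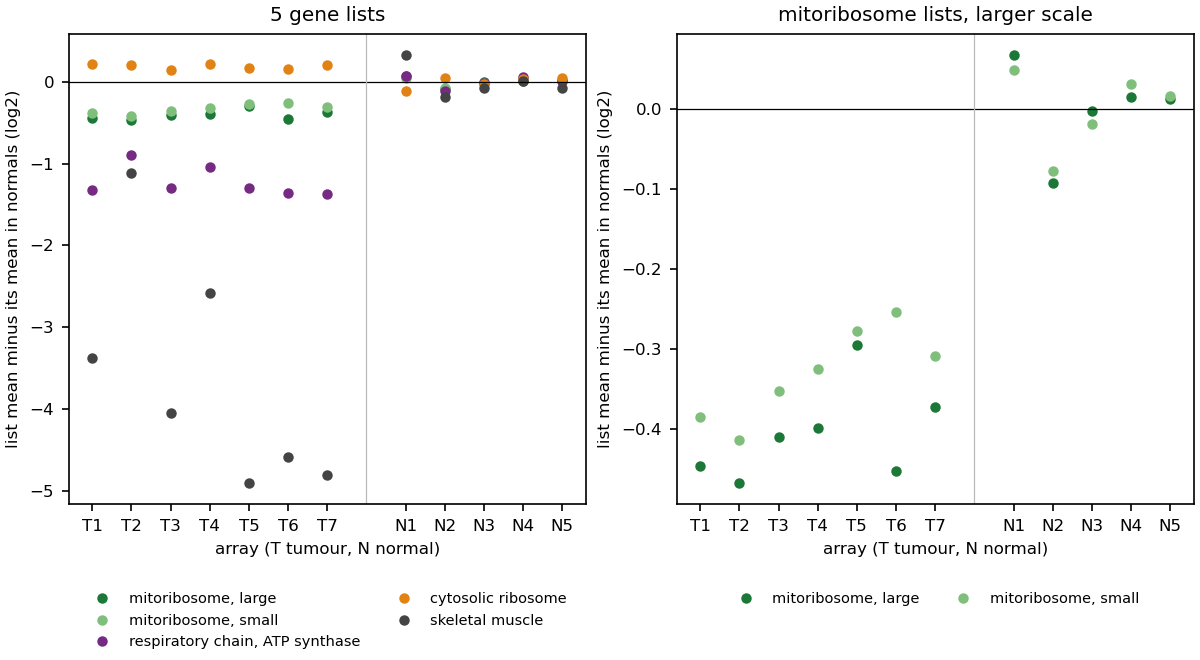
Mean log2 signal of 5 gene lists on each array, minus the list's mean over the 5 normals (left), and the mitoribosomal lists alone on a larger scale (right). The muscle list spans 3.79 log2 units over the tumours, while the large and small subunit lists span 0.17 and 0.16 and lie below all normals in every tumour. The cytosolic ribosome list lies above the normals here, a direction that centring on reference genes turned.

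Among other genes of mitochondrial translation, most factors that drive the ribosome were lower under every scaling tried. Of 11 translation factors measured of 14 listed, 8 were lower and 0 higher, with a median of -0.28, where 23.6% of all genes were lower and 32.5% higher. Gfm1, which moves the ribosome along, was at -0.94 (SE 0.09, limma adjusted p 2.73e-06), Gfm2, which splits the subunits for recycling, at -0.86 (SE 0.09, limma adjusted p 5.87e-06), the release factor Mtrf1 at -0.77 (SE 0.08, limma adjusted p 5.45e-06), and Tufm, which delivers charged tRNA, at -0.50 (SE 0.08, limma adjusted p 0.000216).

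Of 18 ribosome assembly genes measured of 23 listed, 7 were lower and 1 higher (23.6% and 32.5% of all genes), with a median of -0.11. Under cyclic loess 10 were lower and 0 higher (28.5% and 24.5% of all genes), and with the reference genes 18 were lower (65.3% of all genes). The lower ones included the rRNA methyltransferases Mrm3 (-0.81, SE 0.10), Nsun4 (-0.71, SE 0.10) and Mrm1 (-0.68, SE 0.09) and the rRNA chaperone Eral1 (-0.69, SE 0.09). The higher one was the RNA helicase Dhx30 (0.30, SE 0.09), not called under cyclic loess (0.13) and called lower with the reference genes (-0.23). Of 4 ribosomal proteins with other names, Chchd1 was lower (-0.69, SE 0.08, limma adjusted p 1.47e-05), while Dap3 (-0.08), Ptcd3 (-0.26) and Gadd45gip1 (-0.17) were not called, though all 4 were called lower under cyclic loess and with the reference genes.

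Of 18 aminoacylation genes measured of 23 listed, 4 were lower and 2 higher, with a median of -0.01, a lower share near the 23.6% of all genes. With the reference genes 16 of the 18 were lower, with a median of -0.54, where 65.3% of all genes were lower. Qrsl1 (-1.04, SE 0.09) and Gatb (-0.62, SE 0.11) are subunits of the amidotransferase that makes glutaminyl-tRNA, and Fars2 (-0.999, SE 0.10) and Lars2 (-0.54, SE 0.10) charge phenylalanine and leucine tRNAs. Gars, which also serves the cytosol, was higher (0.53, SE 0.08, limma adjusted p 7.77e-05), as was Rars2 (0.35, SE 0.12, limma adjusted p 0.0256), and neither was called with the reference genes (0.007 and -0.17). Of 10 genes of mitochondrial DNA and transcription measured of 11 listed, 2 were lower and 2 higher, with a median of -0.07. Of all genes, 23.6% were lower and 32.5% higher. Under cyclic loess 5 were lower and 2 higher (28.5% and 24.5% of all genes). With the reference genes 8 were lower and 1 higher (65.3% and 8.64% of all genes). The transcription factors Tefm (-0.84, SE 0.08) and Tfb2m (-0.58, SE 0.10) were lower, and the topoisomerase Top1mt (0.92, SE 0.11) and the termination factor Mterf1a (0.56, SE 0.08) higher, both above 0 under every scaling tried but Mterf1a not called with the reference genes (0.03).

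The regulators of mitochondrial biogenesis split. Of 7 measured of 10 listed, 3 were lower and 4 higher, where 23.6% of all genes were lower and 32.5% higher. Yy1 was not among the 7. Ppargc1a, the coactivator PGC-1α, was above background in 2 of 7 tumours, with signals of 6.01 to 7.31 in tumours and 9.10 to 9.35 in normals. It is counted among the 3 lower ones, but it met the filter of 5 arrays only through the normals, where it is high. Its p-value and the size of its fall are not given, since the signal of 5 tumours was not well above background. Its relative Ppargc1b (-1.04, SE 0.12, limma adjusted p 1.5e-05) and the oestrogen-related receptor Esrra (-1.11, SE 0.08, limma adjusted p 2.21e-07) were lower too. Nrf1 was higher by 0.70 (SE 0.12, limma adjusted p 0.000214) and Myc by 0.45 (SE 0.13, limma adjusted p 0.0105). The GABP subunits were higher too, Gabpa by 0.56 (SE 0.08, limma adjusted p 5.28e-05) and Gabpb1 by 0.30 (SE 0.08, limma adjusted p 0.00703). With the reference genes Nrf1 (0.17), Gabpa (0.03) and Myc (-0.08) were not called and Gabpb1 (-0.22) was called lower, and under cyclic loess Gabpb1 (0.18) was not called.

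Set beside the families on either side of them, the mitoribosomal genes lay in between by median, an order that was not tested. Of all genes, 23.6% were lower and 32.5% higher. Nuclear genes of the respiratory chain and ATP synthase were lower for 69 and higher for 2 of 73, with a median of -1.09. Genes of cytosolic ribosomal proteins were higher for 37 and lower for 2 of 55, with a median of 0.28, but that direction depended on scaling, with medians of -0.01 under cyclic loess and -0.24 with the reference genes. The 2 lower ones were Rpl22 and Rpl3l, a muscle paralog of Rpl3, at -5.20 (SE 0.81).

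**Figure D4:**
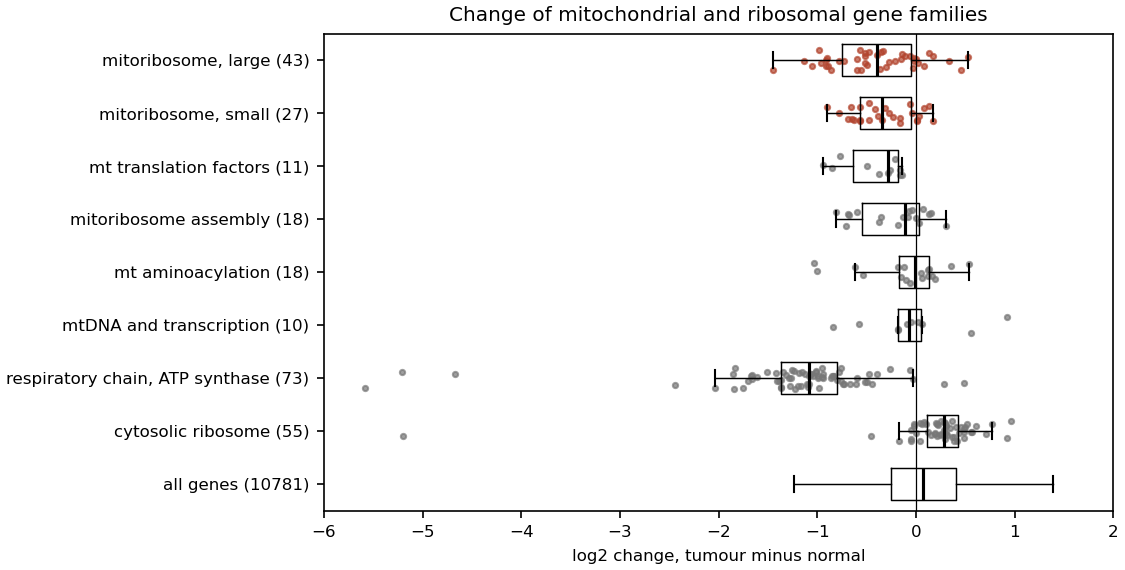
Log2 change, tumour minus normal, of the mitoribosomal genes and of related families, each point a gene, with boxes for the quartiles and whiskers by Tukey's rule. Medians are -0.39 and -0.34 in the mitoribosomal subunits, -1.09 in the respiratory chain and 0.28 in the cytosolic ribosome, the last turning to -0.24 with arrays centred on reference genes, against 0.07 over all genes.

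How far the genes fell depended on how arrays were scaled. Reference genes themselves read high in tumours, 7 of 11 called higher with a median of 0.54, and centring on them moved the median of all genes to -0.46 and the calls to 40 of 43 large and 27 of 27 small subunit genes lower, where 65.3% of all genes were lower and 8.64% higher. Under cyclic loess 33 large and 20 small subunit genes were lower and 2 large ones higher, where 28.5% of all genes were lower and 24.5% higher. Medians were -0.62 in the large and -0.60 in the small subunit under cyclic loess, with -0.01 over all genes, and -0.92 and -0.87 with the reference genes. Relative to the median of all genes, the subunits stood at -0.46 and -0.41 as reported and at -0.61 and -0.59 under cyclic loess, a difference that centring on the reference genes cannot change, since it shifts all genes of an array alike.

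**Figure D5:**
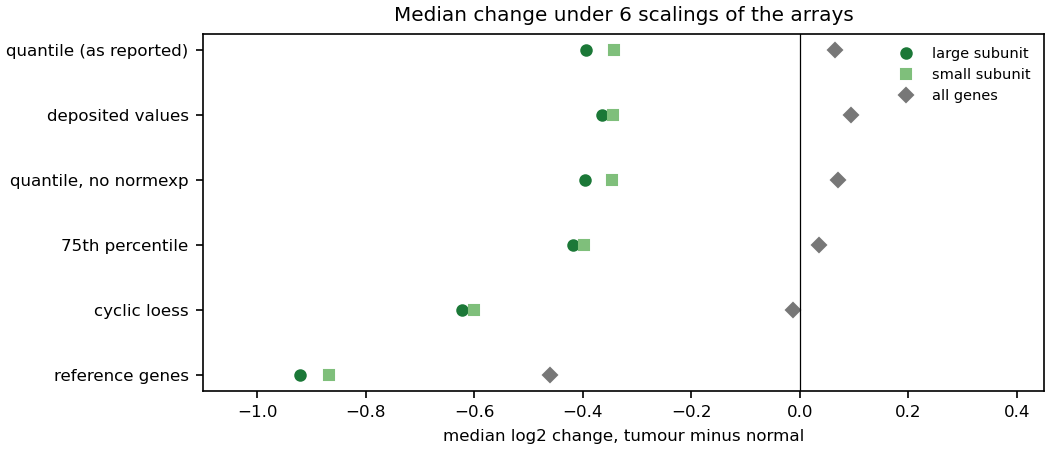
Median log2 change, tumour minus normal, of the large and small subunit genes and of all genes under 6 scalings of the arrays. Both subunit medians lie below 0 and left of the all-gene median under each of them, by a gap that reference genes cannot change, at -0.39 and -0.34 as reported and -0.92 and -0.87 with the reference genes.

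Most calls did not hang on the probe or on 1 array. Of 21 genes with more than 1 probe above background, 15 had the same call on all probes and 0 had a probe called the opposite way. Mrps25 had the widest spread among those that differed, from -0.48 to 0.10 over 3 probes. Of the 44 genes called lower, 39 were called lower under each of 27 alternative settings, and the exceptions were Mrpl13, Mrpl54, Mrpl58, Mrps12 and Mrps24.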

How the data were processed

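Gene expression was measured on 12 Illumina bead arrays. The values used were log2 values deposited by the authors, 1 column per array for 25697 probes, whose base was inferred from their range. Per the submitters' processing notes, BeadStudio and Partek 6.6 were used, and their roles and the background handling are not given in the sources used here. A second table with 24 columns of per-sample values that match no sample label was not used.

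From these values the linear signals were corrected with normexp (offset 50), quantile normalised and returned to log2. A probe was kept when it exceeded its array's background threshold (1.64 standard deviations above the mode of its values, the spread taken from values below the mode, a 5% tail) on at least 5 arrays, which 15694 probes did (61.1%). Symbols came from the array annotation (23978 probes with 1 symbol, 1719 with none), updated for 23962 probes through the RefSeq table of GRCm38.p6, the assembly of the promoter windows. Tumours were compared with normals by limma 3.58.1 in R 4.3.3 (lmFit, eBayes, two-sided, no covariate), with p-values adjusted by Benjamini-Hochberg across all kept probes, after tests on simulated data. The number of arrays limits the precision. Python 3.11.15 with matplotlib 3.10.9 served for the figures.

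Genes named were the 6 largest rises and 6 largest falls per subunit among called genes whose groups did not overlap, a set fixed by role, and up to 4 genes per further list. Mrpl1, Mrpl10, Mrpl46, Mrps11, Mrps25, Tcp1, Ndufb5, Cox6a2, Cox7a1, Cox8b, Rpl22, Rpl3l, Casq1 and the genes named as exceptions were chosen after their values were seen, and all 4 measured ribosomal proteins with other names are given. The genes, lists and roles were chosen with earlier results of these data known. Alternatives covered background, scaling, signal filter, probe choice, test, array weights, a replicate block and left-out arrays. Mrpl41 and Mrpl44 were not analysed here.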

Additional observations from a re-analysis of the deposited data

Results flagged for a closer look

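Among 68 groups of values tested for an array far from the others, 4 held one, and chance alone flags about 1 in 20. Tumour 6 read 9.52 for Mrpl38 (nearest tumour 10.02) and 8.24 for Mrpl58 (nearest 8.61), tumour 4 read 11.44 for Mrps21 (nearest 11.03), and tumour 2 read 7.93 for Mrps27 (nearest 8.28).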

How the results depend on the processing

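The direction of both medians held under all 27 alternatives. Cyclic loess gave medians of -0.62 in the large and -0.60 in the small subunit, and centring on the reference genes -0.92 and -0.87, with 0 large subunit genes called higher and 27 small ones lower. Calls higher made up 58.0% of all calls as reported, 46.3% under cyclic loess and 11.7% with the reference genes. One small subunit gene, Mrps22, was called higher with array weights (count 1), without normal 1 and tumour 2, the arrays with salivary gland signal (count 1), and without tumour 2 alone. Leaving out each array in turn gave medians of -0.44 to -0.37 in the large and -0.39 to -0.28 in the small subunit, 26 to 28 large and 15 to 18 small subunit genes lower, and 3 to 4 large and 0 to 1 small ones higher. The cause of these moves was not tested.

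Among named genes, 801 of the recomputed values kept their direction and call, 32 lost the call, 8 gained it and 23 changed sign, mostly for genes not called. Signs turned for Mrpl24 (0.060 on the deposited values, 0.0053 with 75th percentile centring, -0.064 to 0.031 over left-out arrays), Mrps7 (0.020 on the deposited values and 0.023 without normal 1 and tumour 2, -0.11 to 0.0093 over left-out arrays), Mrps18b (0.031 on the deposited values, 0.071 as a mean over probes, 0.0066 without normal 1 and tumour 2, -0.11 to 0.013 over left-out arrays), Mrps18c (-0.16 under cyclic loess, -0.51 with the reference genes, -0.0067 with array weights, -0.0043 with the replicate block, -0.016 to 0.041 over left-out arrays), Mrps22 (-0.0025 under cyclic loess, -0.36 with the reference genes), Mrpl36 (-0.074) and Mrpl52 (-0.19), both with the reference genes. With the replicate number as a block, 27 large and 17 small subunit genes were lower and 3 large ones higher, with medians of -0.39 and -0.35. Same-numbered arrays shared only a number, with correlations of their deviations of -0.37 to 0.08. A slide block was not run, since no header names the slides. Signal over background limits the rest, since 6 of the 76 genes could not be measured.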
